A study of Mus musculus with 6 samples.

Results

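The miR-9-3p target clusters of the newborn mouse brain were collected from AGO2 chimeric eCLIP, a crosslinking and immunoprecipitation (IP) method in which the miRNA held by AGO2 is ligated to the RNA it is paired with, so that a single read names both. Members were all entries assigned to miR-9-3p in the lists of target clusters of the 3 IP libraries. There were 589 of them among 66068 assignments of a cluster to a miRNA: 197 of 22074 in WT, and 273 of 30526 and 119 of 13468 in replicates 1 and 2 of *Mov10* Deletion. All libraries came from whole brains of C57Bl/6J mice at postnatal day 0 (P0), with 1 library from WT and 2 from *Mov10* Deletion (Del 1 and Del 2 below, by replicate number), and the 3 input samples entered only through the IP over input values of AGO2 clusters. *Mov10* Deletion mice carry a floxed *Mov10* allele that Emx1-Cre removes in the excitatory neurons of the cortex and hippocampus, over a *Mov10* allele disrupted by an insertion in every cell, so that the remaining cells of a whole brain are heterozygous. As WT has a single library, the genotypes were not tested against each other, and differences between libraries are given as values. Fewer cells of a type and less RNA per cell cannot be told apart in whole-brain libraries.

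miRNAs are cut from hairpins with 2 arms, and either arm can be loaded into AGO2, where nucleotides 2 to 8, the seed, are the main contact with target RNA. miR-9 is one of the most abundant miRNAs of the developing brain, where it acts in neural progenitors and in neuronal differentiation. Its 5p arm is the better known, while the 3p arm, once called miR-9*, has been reported to act on the CoREST and BAF chromatin complexes. The arms have different seeds and so recognise different sites. By RefSeq (GRCm38.p6, which is mm10), 3 hairpins encode the same mature miR-9-3p, on the plus strand at chr3:88215652-88215673 (*Mir9-1*), chr7:79505318-79505339 (*Mir9-3*) and chr13:83738858-83738879 (*Mir9-2*). Both mature arms are shown with the seed in capitals, since the site searches below turn on it.
miR-9-3p: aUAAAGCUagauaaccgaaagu
miR-9-5p: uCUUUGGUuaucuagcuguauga

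Examples of sites are shown next, since they let the pairing be read against the miRNA. Each is a 7-nt match to the miR-9-3p seed (AGCTTTA, in capitals) inside a cluster found in all 3 libraries, with the 15 nt before it and the nucleotide after it, which faces the first nucleotide of the miRNA. Positions are those of the 7 nt in GRCm39, which was searched because it was the genome at hand, and each sequence is that of the RNA strand.
Insm1, 3′UTR, chr2:146066236-146066242, plus strand: acttcccacacgattAGCTTTAt
Zfp292, 3′UTR, chr4:34803984-34803990, minus strand: ttatggatggtgtatAGCTTTAa
Auts2, 3′UTR, chr5:131467818-131467824, minus strand: aaagagaaagacaaaAGCTTTAc
Plekha5, 3′UTR, chr6:140542134-140542140, plus strand: tgtttattccaaactAGCTTTAa
Bdp1, 3′UTR, chr13:100154831-100154837, minus strand: acaatcagtgtgcttAGCTTTAa
Tmc7, 3′UTR, chr7:118135430-118135436, minus strand: aggcaatgtctgtatAGCTTTAa
Vash2, coding sequence (CDS), chr1:190692627-190692633, minus strand: gagcggttccctatcAGCTTTAa
Sptan1, CDS, chr2:29880978-29880984, plus strand: gacgctcatgaagatAGCTTTAa

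The label of the tissue was checked with AGO2 clusters on marker genes. All 6 neuronal and all 5 neural progenitor markers had AGO2 clusters in every library, while 1 of 4 liver markers had any, with 1 to 3 clusters per library, and 1, 2 and 2 of 4 skeletal muscle markers did, with 2, 4 and 4 clusters in WT, Del 1 and Del 2. The target-cluster lists of the *Mov10* Deletion libraries share 4052 clusters of identical coordinates, against 11 and 8 with WT. Among miR-9-3p clusters, the 32 that overlapped between the *Mov10* Deletion libraries all had identical coordinates, so agreement of position between these libraries is not an independent measurement. No miR-9-3p cluster of WT had the coordinates of one in *Mov10* Deletion. AGO2 clusters on the neuronal markers numbered 569 in WT, 1114 in Del 1 and 1115 in Del 2. On *Map2* and *Rbfox3* both *Mov10* Deletion libraries had 241 and 681, against 136 and 296 in WT. The presence of an AGO2 cluster in both of these libraries cannot be taken as independent either. Fewer of the marker clusters were enriched by the rule given below. On the neuronal markers 21, 128 and 72 were enriched in WT, Del 1 and Del 2, with 20 of those in WT on *Rbfox3*. On the progenitor markers 0, 22 and 2 were enriched, on the liver markers 0, 0 and 0 and on the skeletal muscle markers 0, 0 and 1. Each cluster carries a score of at least 3 that the sources do not describe, and it was used only to rank clusters. Total read depth is unknown, and all intervals are exact Clopper-Pearson 95% intervals that cover counting error only.

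miR-9-3p took nearly the same share of target-cluster assignments in each library. The share was 0.892% (95% interval 0.773 to 1.03) in WT, 0.894% (0.792 to 1.01) in Del 1 and 0.884% (0.732 to 1.06) in Del 2, and miR-9-3p ranked 14th of 328, 13th of 459 and 14th of 379 miRNAs. The other arm had many more clusters, 2013 in WT, 2041 in Del 1 and 924 in Del 2, or 9.12%, 6.69% and 6.86% of assignments. There were therefore 10.2 miR-9-5p clusters for each miR-9-3p cluster in WT, 7.48 in Del 1 and 7.76 in Del 2. As a share of the clusters of both arms, miR-9-3p had 8.91% in WT (95% interval 7.76 to 10.2), 11.8% in Del 1 (10.5 to 13.2) and 11.4% in Del 2 (9.54 to 13.5). The interval of WT did not overlap that of Del 1 and overlapped that of Del 2. These intervals hold no variation between brains, so their overlap does not compare the genotypes. At a score of at least 5, the shares of both arms were 7.01%, 11.4% and 9.14%.

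**Figure D1:**
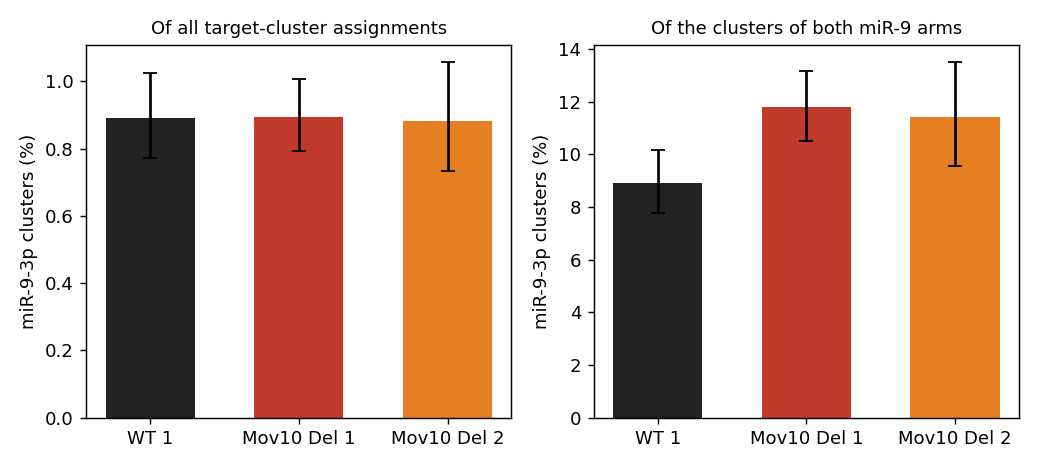
Bars show miR-9-3p clusters as a percentage of all target-cluster assignments (left) and of the clusters of both miR-9 arms (right) in the WT library and the 2 *Mov10* Deletion (Del) libraries; error bars are exact 95% binomial intervals. The left bars stand between 0.884% and 0.894%, and the right bars rise from 8.91% in WT to 11.4% and 11.8% in *Mov10* Deletion.

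The clusters held the miR-9-3p seed match far more often than clusters of other miRNAs. Sequence could be placed for 563 of the 589 clusters. The 7-nt site was in 55 of 189 placed clusters in WT (29.1%, 95% interval 22.7 to 36.1), 52 of 260 in Del 1 (20%, 15.3 to 25.4) and 29 of 114 in Del 2 (25.4%, 17.7 to 34.4). In clusters of all miRNAs other than the miR-9 arms the same site was in 0.891%, 0.790% and 0.770%, and in miR-9-5p clusters in 1.35%, 1.34% and 1.48%. In windows of the same width moved 300 nt upstream of the miR-9-3p clusters it was in 2.65%, 3.08% and 0.877%. The 6-nt match to nucleotides 2 to 7 was in 44.4%, 34.2% and 40.4% of miR-9-3p clusters, against 2.78%, 2.30% and 2.33% of those of the other miRNAs. The mean difference in the 7-nt share from the other miRNAs was 24.0 percentage points ± 4.53 (SD, n = 3 libraries), positive in 3 of 3 libraries, with p = 0.25 by an exact two-sided sign-flip permutation test, the smallest p that 3 libraries can give. The 7-nt miR-9-5p site was in 1 of 189, 4 of 260 and 3 of 114 miR-9-3p clusters, against 20.4%, 14.2% and 15.5% of the clusters of miR-9-5p itself.

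Matches lay close to the middle of the clusters and fell mostly on the 5′ side of it. In the 20-nt bin just before the middle there were 12.7, 8.85 and 12.3 sites per 100 clusters in WT, Del 1 and Del 2, and in the bin just after it 4.23, 3.85 and 6.14. From 60 to 79 nt after the middle there were 0 sites in every library. Single sites lay further out, as WT had 1 from 80 to 99 nt and 2 from 200 to 219 nt.

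**Figure D2:**
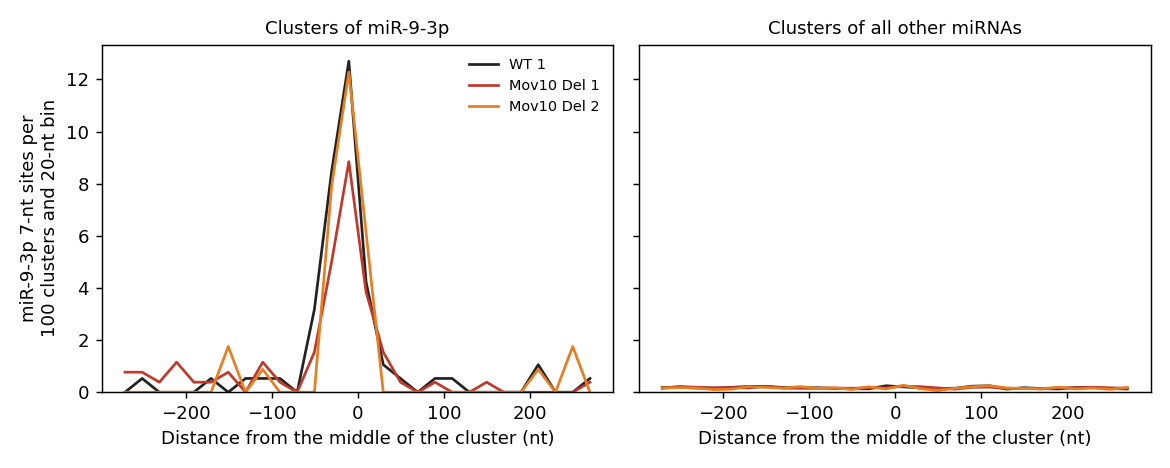
Number of 7-nt miR-9-3p sites per 100 clusters in 20-nt bins against the distance from the middle of the cluster in nt along the RNA, for clusters of miR-9-3p (left) and of all miRNAs other than the miR-9 arms (right), with 1 line per library. The left lines peak at 8.85 to 12.7 in the bin just before the middle, and the right lines stay near 0.

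Of the 7-nt words complementary to miR-9-3p, those facing its 5′ end were the frequent ones. Words facing nucleotides 1 to 7, 2 to 8 and 3 to 9 were in 11.1%, 29.1% and 15.3% of WT clusters, while the word facing nucleotides 4 to 10 was in 2.65%. Del 1 gave 9.62%, 20%, 13.1% and 2.69% for the same words, and Del 2 gave 5.26%, 25.4%, 15.8% and 2.63%. In every library the word facing nucleotides 2 to 8 was the most frequent. In miR-9-5p clusters the word facing nucleotides 1 to 7 of miR-9-5p was ahead of that facing 2 to 8. These were in 25.8% and 20.4% of miR-9-5p clusters in WT and in 19.4% and 14.2% in Del 1. The word facing nucleotides 1 to 7 ends in T for miR-9-3p and in A for miR-9-5p, so this contrast does not compare like words. Words facing nucleotides 13 to 19, at the 3′ end, were in 1.06%, 1.15% and 1.75% of the clusters and in 0.153%, 0.166% and 0.117% of those of the other miRNAs, but rest on 2, 3 and 2 clusters. Of the 94 distinct sites whose flanks were read, 45 (47.9%) had A facing the first nucleotide, 31 T, 10 C and 8 G. The sites with T include all 14 of the repeated intronic group described below.

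**Figure D3:**
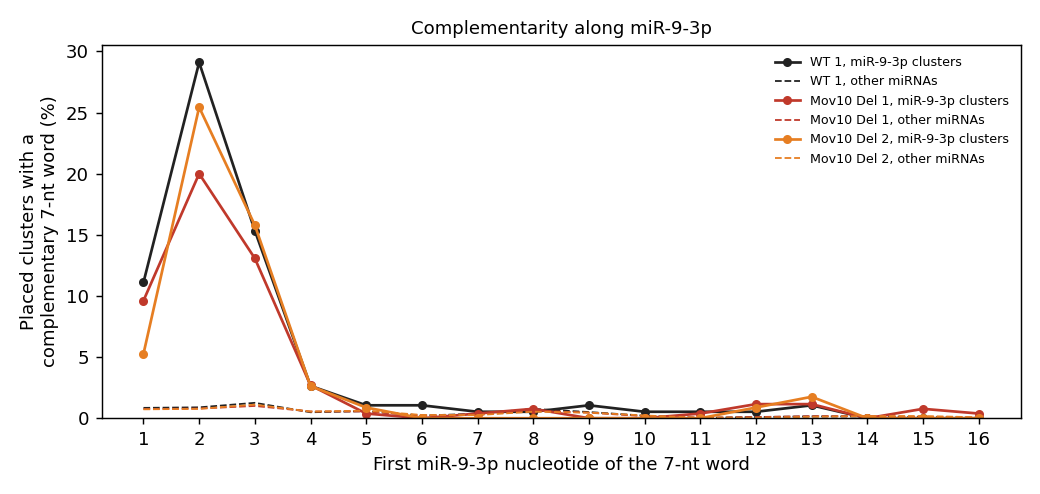
Share of placed clusters (%) that hold a 7-nt word complementary to miR-9-3p, against the first miRNA nucleotide the word faces, for miR-9-3p clusters (solid) and clusters of all miRNAs other than the miR-9 arms (dashed) in each library. The solid lines peak at nucleotide 2, at 20% to 29.1%, and are near the dashed lines from nucleotide 5 on.

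A group of intronic sites shared more than the seed. Of the 94 sites, 37 lay in introns, and 14 of these, in 13 genes, differed from another member of the group by at most 4 of the 15 nt before the seed match. Examples are shown because the resemblance is visible only in the sequence, with the seed match in capitals.
Camsap2, intron, chr1:136226089-136226095, minus strand: agtctatggttttaaAGCTTTAt
G2e3, intron, chr12:51417065-51417071, plus strand: tctttatggtttaagAGCTTTAt
Unc5d, intron, chr8:29583624-29583630, minus strand: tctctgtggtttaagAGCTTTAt
Anks1b, intron, chr10:90531535-90531541, plus strand: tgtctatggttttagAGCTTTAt
All 14 sites have GGTT facing nucleotides 13 to 16 of miR-9-3p, the 4 nt that add to seed pairing in the standard account of target recognition. These 23-nt sequences are repeated: the genome holds between 1 and 896 exact copies of each, with a median of 18.5, and 3502 seed matches lie within 3 mismatches of the majority sequence of the group over the 15 nt. Each of the other sites, including all 42 in 3′UTRs and all 14 in the CDS, has 1 copy. Sites of this group were in 9 of 189 miR-9-3p clusters in WT, 8 of 260 in Del 1 and 3 of 114 in Del 2. In clusters without a miR-9-3p assignment they were in 0 of 17109, 0 of 25827 and 2 of 11804. The group was defined from sites in miR-9-3p clusters, so its presence in them was fixed by that choice. The clusters without such an assignment held only 148, 198 and 97 of the 7-nt sites. These counts therefore do not test whether the group is particular to miR-9-3p. A read on such a copy can belong to another copy, so the genes named for this group are uncertain. Outside the group, GGTT faced nucleotides 13 to 16 at 1 of 46, 3 of 45 and 0 of 27 sites. Without the clusters that hold these sites, the mean difference in the 7-nt share from the other miRNAs was 21.3 percentage points.

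miR-9-3p clusters stood in 3′UTRs more often than those of the other arm, and seldom in coding sequence. By their place in GENCODE vM39 transcripts, 51.9% (98 of 189) lay in a 3′UTR in WT, 40.4% (105 of 260) in Del 1 and 38.6% (44 of 114) in Del 2. For miR-9-5p the 3′UTR held 35.2%, 28.7% and 28.9%, and for the other miRNAs 39.2%, 29.6% and 30.3%. In the CDS lay 7.94%, 8.46% and 7.89% of the miR-9-3p clusters, against 23.4%, 21.2% and 22.3% of the miR-9-5p clusters. For the other miRNAs the CDS held 12.8%, 13.7% and 13.6%, below the shares of miR-9-5p. The mean difference between the arms was 12.7 percentage points ± 3.56 (SD, n = 3) in 3′UTRs and -14.2 ± 1.34 in the CDS, each of the same sign in 3 of 3 libraries, with p = 0.25 by the exact sign-flip permutation test. From the other miRNAs the mean difference was 10.6 percentage points ± 2.19 (SD, n = 3) in 3′UTRs and -5.24 ± 0.428 in the CDS. Each of these also had the same sign in 3 of 3 libraries (exact permutation p = 0.25). Introns held 32.8% of the miR-9-3p clusters in WT, 45.4% in Del 1 and 50% in Del 2. The share of the 3′UTR was highest and that of introns lowest in WT for miR-9-5p and for the other miRNAs as well. All these places rest on the distance to the gene end, with no coordinate converted, and can be wrong where annotated ends differ.

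The last 1000 nt of a gene body on the sense strand held 24.9% of the clusters in WT (49 of 197), 19.8% in Del 1 (54 of 273) and 20.2% in Del 2 (24 of 119). The mean difference was 7.68 percentage points ± 1.73 (SD, n = 3) from miR-9-5p and 4.99 ± 0.487 from the other miRNAs, positive in 3 of 3 libraries (exact permutation p = 0.25). At a score of at least 5 the difference from the other miRNAs was 11.2 in WT, -0.37 in Del 1 and 5.59 in Del 2, so it turned its sign in Del 1. Seed matches were not limited to 3′UTRs. The 7-nt site was in 28 of 98, 27 of 105 and 11 of 44 clusters placed in 3′UTRs, in 18 of 62, 18 of 118 and 10 of 57 placed in introns, and in 9 of 15, 6 of 22 and 7 of 9 placed in the CDS.

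**Figure D4:**
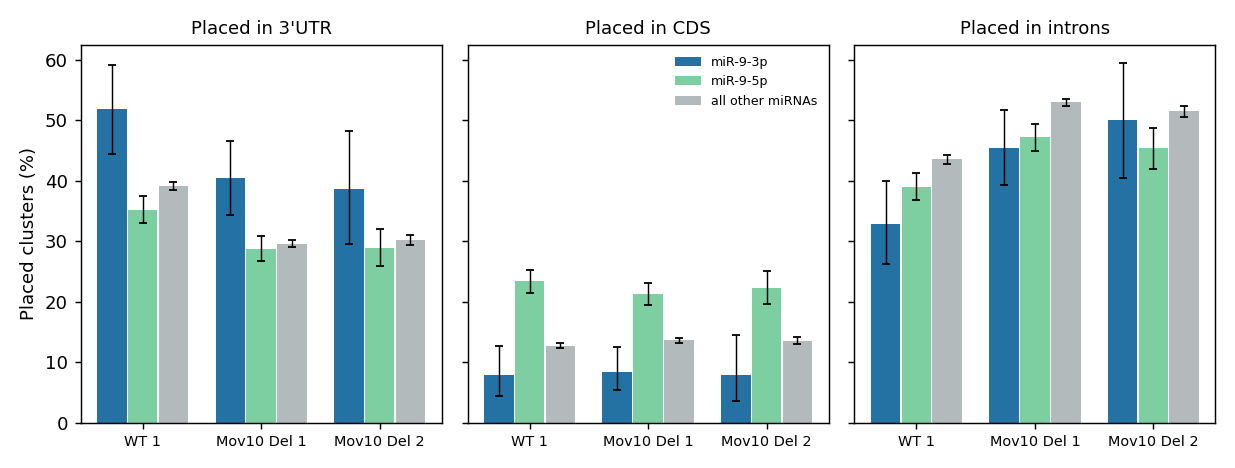
Share of placed clusters (%) in 3′UTRs, coding sequence (CDS) and introns for miR-9-3p, miR-9-5p and all other miRNAs in each library; error bars are exact 95% binomial intervals. The miR-9-3p bars are the highest of each library in 3′UTRs, at 38.6% to 51.9%, and the lowest in the CDS, at 7.89% to 8.46%.

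The share of miR-9-3p clusters on enriched AGO2 clusters was near that of all target clusters. A cluster was called enriched where it overlapped an AGO2 cluster with log2(IP/input) and −log10 p both at 3 or above. Enriched were 38 of 197 miR-9-3p clusters in WT (19.3%, against 20% of all assignments), 43 of 273 in Del 1 (15.8%, against 14.7%) and 18 of 119 in Del 2 (15.1%, against 14.1%). The mean difference from the other miRNAs was 0.410 percentage points ± 1.22 (SD, n = 3), with -0.99 in WT, 1.02 in Del 1 and 1.2 in Del 2 (exact permutation p = 0.5). These signs did not hold at a score of at least 5, where the differences were 3.08, 3.28 and -3.47. Any AGO2 cluster, enriched or not, was present at 74.1%, 56.0% and 45.4% of the miR-9-3p clusters, against 76.8%, 61.9% and 65.8% of the miR-9-5p clusters and 72.6%, 53.4% and 55.3% of those of the other miRNAs. The difference between the arms was negative in 3 of 3 libraries, with a mean of -9.65 percentage points ± 9.47 (SD, n = 3, exact permutation p = 0.25), and was widest in Del 2, at -20.4. The share with the 7-nt site was 29.7%, 24.3% and 25% on enriched AGO2 clusters and 28.9%, 19.3% and 25.5% elsewhere. The 6-nt site was in 59.5%, 43.2% and 50% on enriched AGO2 clusters and in 40.8%, 32.7% and 38.8% elsewhere, higher on enriched AGO2 clusters in 3 of 3 libraries.

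Merging clusters that overlap on the same strand gave 470 loci, of which 26 were in all 3 libraries, 59 in 2 and 385 in 1. WT and Del 1 shared the most, with 77 overlapping clusters, which are 39.1% of those of WT and 28.2% of those of the deletion library. WT shared 32 with Del 2, 16.2% of the WT clusters and 26.9% of the Del 2 clusters. For miR-9-5p the same shares were 36.6% and 37.1% between WT and Del 1, and 21.2% and 46.3% between WT and Del 2. Of the placed loci in all 3 libraries 12 of 24 held the 7-nt site (50%, 95% interval 29.1 to 70.9), of those in 2 libraries 13 of 57 (22.8%, 12.7 to 35.8) and of those in 1 library 74 of 369 (20.1%, 16.1 to 24.5). An AGO2 cluster lay on 20, 23 and 23 of the 26 loci in WT, Del 1 and Del 2, against 50.9%, 48.8% and 48.8% of the loci in 1 library. Del 1 and Del 2 had equal numbers here, and their AGO2 clusters cannot be taken as independent. All 385 loci in 1 library were scored in every library, though WT called 114 of them, Del 1 190 and Del 2 81. The groups are therefore unlike. Of the miR-9-3p clusters called in each library, 74.1%, 56.0% and 45.4% lay on an AGO2 cluster, beside 76.9%, 88.5% and 88.5% of the 26 loci. The interval of the 7-nt share of the loci in all 3 libraries overlapped that of the loci in 2 and did not overlap that of the loci in 1. A locus counted if any of its clusters held the site, so loci in more libraries had more windows searched. Positions in Del 1 and Del 2 are also not independent, and the part of both in this difference was not tested.

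On the sense strand, 573 of the 589 clusters lay in a gene, 536 of them in a protein-coding gene. They named 435 genes, 180 in WT, 263 in Del 1 and 111 in Del 2, and 28 genes were named in all 3 libraries. A further locus in all 3 libraries, at chr15:76644970-76645075 on the minus strand of mm10, lay in no gene of that strand.

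*Insm1*, a zinc-finger transcription factor of neurogenic progenitors, had the highest score of any miR-9-3p cluster. Its cluster at chr2:146224289-146224375 (mm10) scored 21.2 in WT, 11.4 in Del 1 and 6.85 in Del 2. The AGO2 cluster there was enriched in every library, with log2(IP/input) of 5.32, 4.15 and 5.16. *Zfp292*, which encodes a zinc-finger protein, scored 16.5, 14.2 and 5.77 in the same order, over AGO2 log2 values of 2.71, 3.32 and 5.25. In both genes the score was lowest in Del 2, the smallest list, and the seed match was present.

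*Itgb1*, the integrin β1 subunit and the only member of a list of 6 reported miR-9-3p targets with a cluster, scored 18.3 in WT, 17.8 in Del 1 and 4.80 in Del 2. Its cluster lay in the 3′UTR at chr8:128732632-128732726 (mm10), on AGO2 clusters of log2 4.27, 4.31 and 4.30, which were enriched in all libraries and nearly equal. No 6-nt or 7-nt match was found at this placement. *Spred1*, an inhibitor of Ras signalling, had the highest score in its lowest library of all genes, with 6.95, 9 and 7.91, and enriched AGO2 clusters of log2 3.34, 3.71 and 3.84. It also had no match. *Pou3f2*, a POU transcription factor of progenitors and upper-layer neurons, scored 14.9 and 19.8 in WT and Del 1 but 3 in Del 2.

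Genes of neuronal adhesion, cytoskeleton and signalling followed. The adaptor of reelin signalling *Dab1* scored 4.50, 11 and 12 in WT, Del 1 and Del 2, at 1 intronic locus in WT and Del 1 and at 2 loci of the 3′UTR in Del 2, so no position was shared by all libraries. *Tenm3*, a teneurin of synaptic partner matching, scored 12.9, 4.87 and 4, and the protocadherin *Pcdh9* 7.56, 8.98 and 4. *Cadm2*, a synaptic cell adhesion molecule, had 5 clusters at 4 loci with scores of at most 7. *Camsap2*, which binds microtubule minus ends, scored 4.85, 3.97 and 5.98 at the repeated intronic site described above, with AGO2 log2 values of 0.96, 0.38 and 1.5. *Nav3*, a neuron navigator, had 3 intronic loci and none in every library. *Celf2*, a splicing regulator, had 7 clusters at 5 loci, and the locus in every library scored 6.96, 7 and 5.49.

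Scores of the remaining named genes were between 3 and 13. *Ank*, a pyrophosphate transporter, scored 8.65, 4.15 and 11. *Bdp1*, a subunit of the RNA polymerase III factor TFIIIB, scored 5.60, 13 and 3. *Auts2*, a regulator of neuronal development, scored 4.58, 4.48 and 4, and *Plekha5* 5.49, 4 and 4. *Cpe*, the carboxypeptidase of neuropeptide processing, scored 5.70, 4 and 4, while *B4galt6*, a galactosyltransferase of glycolipid synthesis, scored 5.36, 5.62 and 3.83 and *4930402H24Rik* 5.86, 6 and 4. *Auts2*, *Cpe* and *Plekha5* scored highest in WT, *Bdp1* in Del 1 and *Ank* in Del 2, so the genes had no common order of the libraries.

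**Figure D5:**
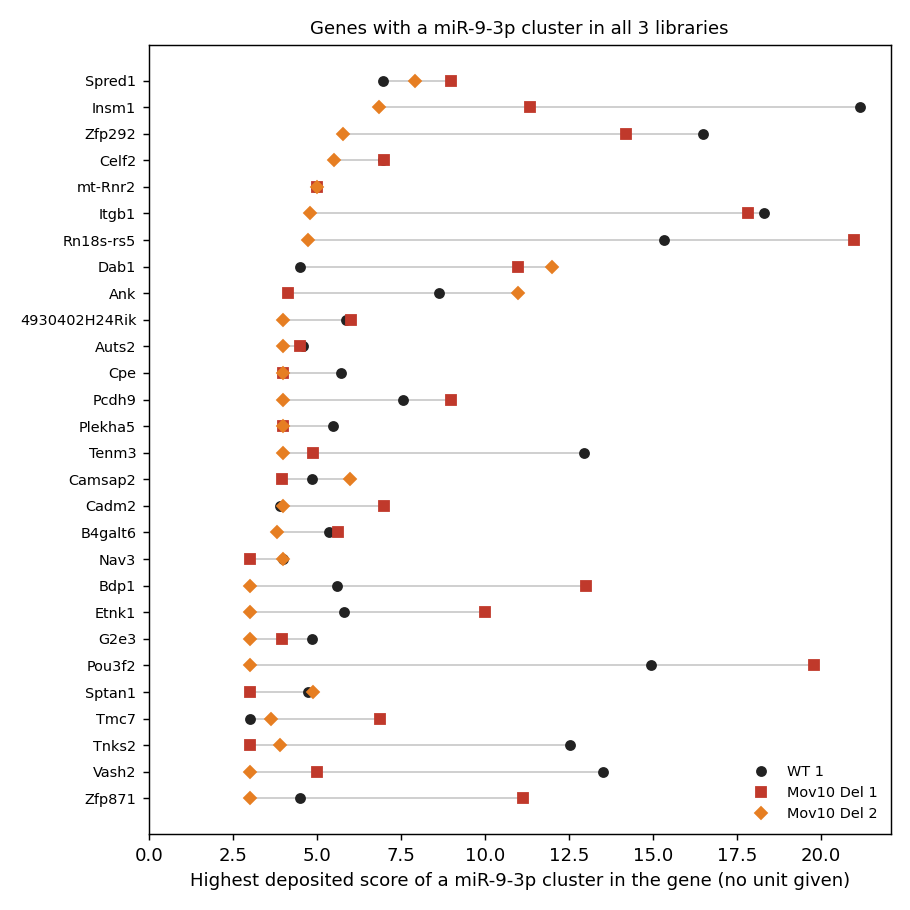
Highest deposited score (no unit given) of a miR-9-3p cluster in each of the 28 genes with a cluster in all 3 libraries, with 1 symbol per library and genes ordered by their lowest library. *Spred1* has the narrow range 6.95 to 9, while *Insm1* runs from 6.85 in Del 2 to 21.2 in WT.

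Ribosomal RNA genes were also among the 28. *Rn18s-rs5*, an annotated copy of 18S rRNA, had the most clusters of any gene, with 10, 8 and 2 at 7 loci and scores of up to 15.3, 21 and 4.72, and *mt-Rnr2*, the mitochondrial large rRNA, scored 4.98, 5 and 5. *Rn18s-rs5* had target clusters of 100, 122 and 77 different miRNAs in the 3 libraries, and the reads could come from any copy of the rRNA, so these genes are uncertain. No miR-9-3p cluster in *Rn18s-rs5* held the 7-nt site.

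A single cluster lay on a miR-9 hairpin itself. In WT, chr7:79505283-79505303 (mm10) within *Mir9-3* and its host gene *Mir9-3hg* was assigned to miR-9-3p with a score of 5.36. It overlaps the 5p arm of the hairpin, at chr7:79505279-79505301, and ends before the 3p arm. It was also assigned to miR-466i-5p and miR-690. The AGO2 cluster there was enriched in every library, with log2 values of 7.04, 9.57 and 9.05, whereas neither *Mov10* Deletion list held a miR-9-3p cluster at this place.

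Of the 435 genes, 344 (79.1%) were named by 1 library only, 97 by WT, 181 by Del 1 and 66 by Del 2. The share named by 1 library only was 61.9% for the 2438 genes with a miR-9-5p cluster and 33.9% for the 9483 genes with a target cluster of any miRNA. The highest scores in WT alone were those of *Wdr26*, a subunit of a ubiquitin ligase (9.06), *Styx*, a catalytically inactive phosphatase (9), *Ski*, a co-repressor of SMAD signalling (8.77), the nuclear import receptor *Tnpo1* (8) and *Srek1ip1* (7.58). AGO2 clusters at these loci were present in both *Mov10* Deletion libraries, with a log2 of 4.80 in Del 1 at *Ski* against none in WT. Only 8 genes were named by both *Mov10* Deletion libraries and not by WT. Among them were *Map6*, a stabiliser of microtubules (6 in both), *Sox4*, a transcription factor of neuronal differentiation (4 and 4.34), the overlapping *Gm46405* with the same cluster, and *Cacfd1* (7.64 and 3.87, at different loci). At *Sox4* an enriched AGO2 cluster of log2 3.17 was present in WT and no AGO2 cluster in *Mov10* Deletion.

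Lists of genes with known roles were compared with all genes that had a target cluster of any miRNA, of which 435 of 9483 (4.59%) had one of miR-9-3p and 2438 (25.7%) one of miR-9-5p. Among neuronal and progenitor transcription factors 8 of 32 had one, *Sox1*, *Sox4*, *Sox11*, *Zbtb20*, *Pou3f1*, *Pou3f2*, *Cux1* and *Zeb2*. Other than *Pou3f2* they were named in 1 or 2 libraries, with scores such as 5 in WT and 3 in Del 2 for *Pou3f1*, 6.92 in Del 1 for *Cux1*, 5.89 in WT for *Zeb2* and 8 in Del 2 for *Zbtb20*. Of the miRNA pathway 4 of 16 had one. These were *Tnrc6b*, the scaffold of the silencing complex (12.6 in WT and 14.5 in Del 1), the helicase *Ddx6* (3.78 in WT), and the deadenylase subunits *Cnot6* (5.80 in WT) and *Cnot6l* (3.88 in Del 1). The AGO2 cluster at *Tnrc6b* was enriched in every library, with log2 values of 3.65, 4.26 and 4.17, although the list of Del 2 held no miR-9-3p cluster there. Of axon guidance 5 of 31 had one, *Dcc*, *Unc5d*, *Sema6a*, *Sema6d* and *Epha4*, with scores of at most 6.10, and of synaptic adhesion and scaffold genes 3 of 24, *Nrxn3*, *Cadm1* and *Cadm2*. Of 35 RNA-binding proteins 2 had one, *Celf2* and *Mbnl1*. *Grin2a*, an NMDA receptor subunit, was the only one of 28 glutamate and GABA receptor genes, and *Camsap2* the only one of 17 microtubule and dendrite genes of the study. The sites read at *Camsap2* and *Unc5d* belong to the repeated intronic group described above, so both of these genes are uncertain. Clusters of miR-9-5p were on 18 of the 32 transcription factors, 9 of the 16 miRNA pathway genes and 21 of the 31 axon guidance genes. They were on 17 of the 24 synaptic genes, 24 of the 35 RNA-binding proteins, 15 of the 28 receptor genes and 12 of the 17 microtubule and dendrite genes. These shares, from 53.6% to 70.8%, all lay above 25.7%, so a high share was not particular to miR-9-3p.

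Among genes of the REST, CoREST and BAF complexes, with which miR-9-3p has been linked, 1 of 28 had a miR-9-3p cluster, the phosphatase *Ctdspl*, with a score of 5 in Del 1 only, and 9 of 28 (32.1%) had one of miR-9-5p. The shares of both arms were near those over all genes with a target cluster. *Rcor1*, which encodes CoREST, and *Actl6a*, a BAF subunit, had none. The lists start at a score of 3, so weaker clusters would not be seen. Of 15 reported miR-9-5p targets with any target cluster, 10 had one of miR-9-5p and 2 one of miR-9-3p. These were the transcription factors *Foxp2* (12.3 in WT and 4.90 in Del 1) and *Onecut2* (3.32 in WT and 3 in Del 2). The *Foxp2* cluster was also assigned to miR-9-5p.

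Genes with clusters of both arms were common. Of genes with a miR-9-3p cluster, 44.4% (80 of 180) had one of miR-9-5p in WT, 42.2% (111 of 263) in Del 1 and 32.4% (36 of 111) in Del 2. Among other genes with target clusters the shares were 23.2%, 18.3% and 13.5%. Genes with a miR-9-3p cluster also had more target clusters of any kind, a median of 5, 6 and 3 against 2, 2 and 1, and the part of this in the difference was not tested. The arms seldom met at one place, since 21 of 197, 13 of 273 and 5 of 119 miR-9-3p clusters were also assigned to miR-9-5p.

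Clusters with no other miRNA made up 62.9% of the miR-9-3p clusters in WT (124 of 197), 74.7% in Del 1 (204 of 273) and 86.6% in Del 2 (103 of 119). Over all assignments the shares were 71.7%, 82.4% and 87.2%. The most frequent partner was miR-124-3p, with 52, 45 and 7 shared clusters. Of the miR-9-3p clusters with another miRNA it was on 52 of 73, 45 of 69 and 7 of 16, and of those of miR-9-5p on 300 of 469, 209 of 373 and 74 of 126. Next in WT came miR-9-5p with 21, let-7c-5p with 20, and let-7a-5p and let-7b-5p with 18 each. The clusters were 86, 73 and 73 nt wide in the median, 4.67 nt ± 1.15 (SD, n = 3) more than those of the other miRNAs (exact permutation p = 0.25). The median score was 4.36, 4 and 4, and its mean difference from the other miRNAs was -0.088 ± 0.152 (exact permutation p = 1).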

How the data were processed

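AGO2 IP libraries of P0 brain were analysed, 1 from WT and 2 from *Mov10* Deletion. According to their methods, the authors extracted molecular identifiers with UMI-tools 1.1.1, trimmed with cutadapt 3.2, discarded repeat and ribosomal reads, mapped with STAR 2.7.7a to mm10 and called AGO2 clusters with CLIPper. For the target clusters, miRBase miRNAs were aligned with Bowtie 1.2.3 to reads left unmapped by the repeat and genome steps. The miRNA part of these reads was cut off, the rest was mapped with STAR, and clusters were called with CLIPper. Whether clusters were called per brain or jointly is not given in the sources used here. The authors deposited AGO2 clusters with log2(IP/input) and a −log10 p that ends at 400, and target clusters with a miRNA and a score that the sources do not describe.

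Deposited intervals are given counted from 1. Clusters were assigned to RefSeq genes of GRCm38.p6 on the same strand by 1 nt of overlap; 45163 of 49997 genes (90.3%) had a strand, from RefSeq or GENCODE vM39. As no mm10 genome was used here, sequence was read from GRCm39 by the distance of the cluster's middle from the gene end, with 10 nt added on each side; no coordinate was converted, and a cluster with no match at this distance may still hold one. Scripts used Python 3, pandas, scipy and pysam and were tested on simulated data. Differences were tested over the 3 libraries by exact two-sided sign-flip permutation.

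Named genes were the first 20 in all 3 libraries by their lowest score, the 5 highest in WT only and in both *Mov10* Deletion libraries only, the 5 with most clusters, and list members; 1 gene that this rule names is not reported here. Members and lists were chosen with earlier results of these data known, and the group of repeated sites, the hairpin cluster and the sites printed were chosen after their values were seen. Alternatives were score minimums, windows, overlaps, single-miRNA clusters and leaving out each *Mov10* Deletion library.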

Additional observations from a re-analysis of the deposited data

How the results depend on the processing

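Of 63 alternative values, 16 left the 95% interval of the reported share or, for counts, moved by over 1.5 times, and none of the means turned its sign. Single libraries did, in the overlap with enriched AGO2 clusters and with the last 1000 nt at a score of at least 5, and WT also in the former at a −log10 p of at least 5, with 0.183 percentage points from the other miRNAs. At a score of at least 5, the share of assignments was 0.749% in WT and 0.683% in *Mov10* Deletion replicate 2, and the miR-9-3p share of both arms was 7.01% and 9.14% there, and 7.43% in WT for clusters with a single miRNA. At that score, 66, 94 and 31 genes remained in WT and *Mov10* Deletion replicates 1 and 2 and 4 in all 3, genes with both arms were 28.8%, 26.6% and 9.68%, and 34, 6 and 6 clusters were shared by WT with replicate 1, WT with replicate 2 and the *Mov10* Deletion libraries. Without *Mov10* Deletion replicate 1, 37 genes were in all libraries left, and without replicate 2 there were 74; the differences in position, AGO2 overlap and seed match kept their sign in both cases, though that in AGO2 overlap from the other miRNAs, 0.410 in all libraries, was 0.104 and 0.013 percentage points, and 1.08 at a −log10 p of at least 5. That from miR-9-5p, 1.13 in all libraries, was 0.612 and 2.36. The difference in seed match from miR-9-5p was 36.7 for the 6-nt site against 23.5 for the 7-nt site. Without the ribosomal RNA genes, added after seeing the data, 26 genes were in all 3 libraries.

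No paired analysis was possible because the input samples that share replicate numbers with the IP libraries entered only as IP over input values and WT has 1 library. This concerns pairs of samples, as differences between miRNAs were taken within each library. The score is undescribed, depth is unknown and exact p-values over 3 libraries cannot go below 0.25.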
